A study of Mus musculus with 6 samples.

Results

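Naive CD4+ and CD8+ T cells of the lymph nodes that drain the uterus (udLN) were compared with those of the brachial nodes (brLN) of the same pregnant mice. The cells were those that the deposited annotation names CD4+ Naive T or CD8+ Naive T, 3621 of 7300 lymph node cells, of which 1703 were CD4+ and 1918 CD8+. Their counts of unique molecular identifiers (UMIs, captured transcripts counted once) were added up per mouse, node and lineage wherever at least 20 cells were present. Each lineage was then tested between the nodes with the mouse as a block, and the differences were compared between the lineages.

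The cells came from 7 dams, of which 4 were Aire-DTR (numbered 4, 7, 8 and 36) and 3 were WT (numbered 1, 6 and 97). All were mated to BALB/c males and given diphtheria toxin over the first 9 days of gestation. In Aire-DTR mice the toxin removes cells that express Aire, the regulator through which thymic stroma and some peripheral cells display tissue antigens. Nodes were taken at embryonic day 9.5, and hashtag antibodies marked mouse and node in 3 pools of 2 wells each for 10x Genomics sequencing of transcript 3′ ends. Pool 1 held mice 8 and 6, pool 2 mice 36 and 97, and pool LN mice 4, 7 and 1. No dam was left without toxin and none was without a pregnancy, so each node difference below was measured in toxin-treated pregnant mice, and the deposited cell table records resorbed fetuses for mouse 4 and growth restriction (IUGR) for mice 7, 8 and 36.

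The udLN of mouse 97 gave only 4 CD4+ and 14 CD8+ naive cells, so the tests of gene levels hold the other 6 mice, 4 Aire-DTR and 2 WT, with 1005 brLN and 536 udLN CD4+ cells and 1061 brLN and 576 udLN CD8+ cells. The deposited matrix held 2127 cells of 1 well of pool LN a second time with identical counts, and each cell was counted once here. Different wells shared 208 barcodes, none of them with identical counts. Sums held 31 to 302 CD4+ cells (100550 to 915723 UMIs) and 23 to 254 CD8+ cells (97324 to 908109 UMIs). The udLN gave fewer cells than the brLN in 5 of 6 mice for CD4+ and in 6 of 6 for CD8+ cells. Depth per cell was close between nodes: the median over mice of UMIs per CD4+ cell was 3014 in brLN and 2916 in udLN, lower in udLN in 5 of 6 mice, and for CD8+ cells 3557 and 3495, lower in 3 of 6. Hbb-bs, a beta globin of red cells whose reads overlap those of a near-identical copy, divided the pools: it was read in 69.2% to 92.1% of the CD4+ cells of each sum from pools 1 and 2 and in 0% to 2.24% of each sum from pool LN. Both nodes of a mouse lie in the same pool, and values for pool LN alone (3 mice) and pools 1 and 2 alone (3 mice) are given beside the results.

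A naive T cell has left the thymus and has not met its antigen. It circulates between blood and lymph nodes, entering with the help of the chemokine receptor Ccr7 and leaving by the sphingosine phosphate receptor S1pr1, a program that the transcription factor Klf2 sustains together with quiescence. Antigen, cytokines and metabolites reach each node in the lymph of the tissue it drains.

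Summed over all mice and given as CPM, a gene's UMIs scaled to 1 common total of UMIs, CD4+ naive cells had Cd4 at 217 and Cd8a at 7.94, and CD8+ naive cells had Cd8a at 749 and Cd4 at 2.53. Cd8b1 was at 1915 in CD8+ cells and at 53.2 in CD4+ cells, read in 8.75% of the latter. Its source there was not tested. Ccr7 (617 and 494), Lef1 (626 and 497) and Tcf7 (431 and 317) were high in CD4+ and CD8+ cells, and the memory marker Cd44 was low (14.7 and 6.10). The summed CPM of 30 memory and effector genes had medians over mice of 1588 in brLN and 1749 in udLN for CD4+ cells, higher in udLN in 5 of 6 mice. Cd44 itself was lower in udLN in 6 of 6, but at only 3 to 16 UMIs a brLN sum and 0 to 5 a udLN sum. For CD8+ cells, where Nkg7 of cytotoxic granules alone stood at 827 CPM, the medians of the 30 genes were 3394 and 3322, lower in udLN in 5 of 6 mice. Foxp3 of regulatory T cells stood at 5.16 and 1.64 CPM. The stromal genes Ccl21a, Ccl19 and Dcn were at 0 and the collagen gene Col1a1 at 6.75 and 3.87 CPM. The 8 stromal genes in the matrix summed to medians of 7.62 CPM in brLN and 10.8 in udLN for CD4+ cells (higher in udLN in 4 of 6 mice) and of 3.60 and 7.48 for CD8+ cells (higher in 6 of 6), at 0 to 9 UMIs a sum. The part of these lists in the node differences was not tested. B cells made up 2267 of the 7300 cells, although the protocol gives a CD45+ CD3+ sort (the series' design text names CD45+ only). Of their genes, Cd79a was at 10.1 and 7.58 CPM in the naive cells against 4711 in B cells, whereas Ighm (immunoglobulin heavy chain mu) was at 265 and 253 against 1062. The summed CPM of 24 B cell genes had medians over mice of 728 in brLN and 712 in udLN for CD4+, and of 690 and 665 for CD8+ cells.

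In CD4+ naive cells 4 of 3369 genes tested (0.119%) differed between nodes by edgeR's quasi-likelihood test at a Benjamini-Hochberg adjusted p below 0.05, 2 higher (0.0594%) and 2 lower (0.0594%) in udLN. They were Socs3 and Lars2 (higher) and Dapl1 and a T cell receptor beta V segment, Trbv17 (lower). In CD8+ naive cells 5 of 4025 genes (0.124%) did, with Dtx1, Acp5, Klf2 and Trbv17 higher (0.0994%) and Trbv1, another V segment, lower (0.0248%). Unadjusted p fell below 0.05 for 208 CD4+ genes (6.17%) and 214 CD8+ genes (5.32%). The 95% interval of the difference lay within 1.5-fold either way for 68.9% of the CD4+ and 71.6% of the CD8+ genes tested, and within 2-fold for 98.8% and 98.9%.

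**Figure D1:**
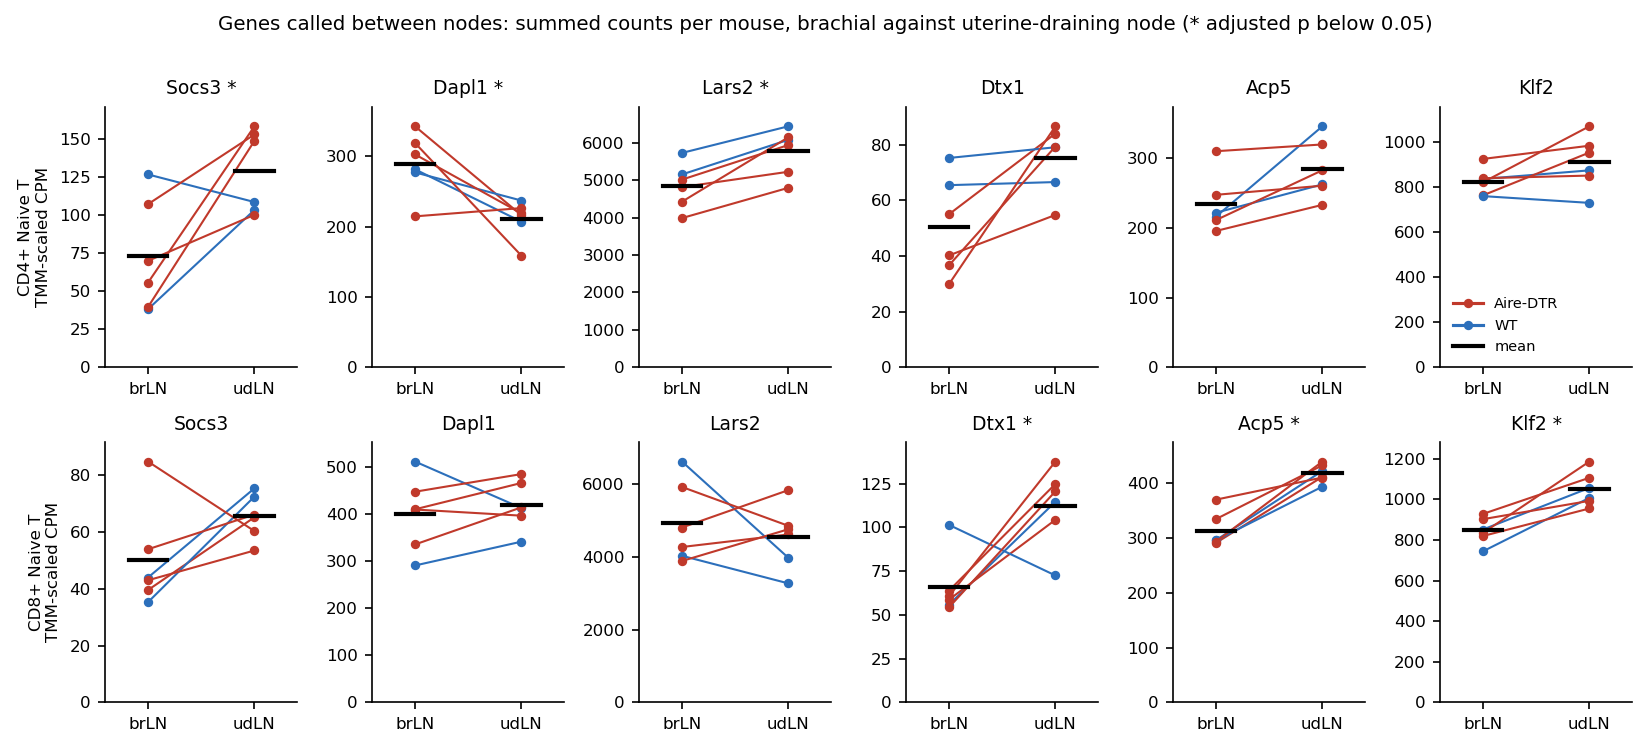
Level of each of the 6 called genes other than V segments in brLN and udLN, in TMM-scaled CPM (y axis, from 0), for CD4+ (top) and CD8+ (bottom) naive T cells. Lines join the nodes of 1 mouse (4 Aire-DTR in red, 2 WT in blue), black bars are means, and a star marks an adjusted p below 0.05. Acp5 and Klf2 rise in all 6 mice in CD8+ cells, and Socs3 in CD4+ cells and Dtx1 in CD8+ cells rise in 5 of 6, with mouse 6 falling in both.

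Bases upstream of the RefSeq start site of Socs3, Klf2 and Dapl1 are shown because the CD4+ differences in cytokine feedback (Socs3) and in a naive marker (Dapl1) and the CD8+ difference in the circulation program (Klf2) are described next. The sequences are from RefSeq on GRCm38.p6, read 5′ to 3′ on the strand of the gene and cut where an exon of the gene begins in GENCODE. The GENCODE span of Socs3 starts farther upstream than the RefSeq start, so the Socs3 stretch lies inside that span, between exons, and stops short of the RefSeq start. The Klf2 stretch stops short of its RefSeq start too. Capitals mark a match to the STAT motif TTCNNNGAA in Socs3 and to the FOXO motif GTAAACA in Dapl1, searched on both strands.
Socs3, chr11:117969452-117969616, minus strand: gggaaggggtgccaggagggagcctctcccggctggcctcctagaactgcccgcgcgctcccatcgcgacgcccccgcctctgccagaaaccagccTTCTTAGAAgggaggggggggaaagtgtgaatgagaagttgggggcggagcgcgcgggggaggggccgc
Klf2, chr8:72318812-72319032, plus strand: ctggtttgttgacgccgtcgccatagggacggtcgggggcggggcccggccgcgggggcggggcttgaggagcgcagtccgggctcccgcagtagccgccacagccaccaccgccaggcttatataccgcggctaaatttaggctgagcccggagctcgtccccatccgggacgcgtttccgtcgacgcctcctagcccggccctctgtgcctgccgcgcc
Dapl1, chr2:59484403-59484652, plus strand: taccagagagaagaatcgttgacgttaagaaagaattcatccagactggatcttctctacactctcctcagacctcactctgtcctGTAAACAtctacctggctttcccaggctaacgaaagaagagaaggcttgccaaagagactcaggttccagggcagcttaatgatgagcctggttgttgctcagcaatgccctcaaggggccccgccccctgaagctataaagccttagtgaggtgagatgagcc
The Socs3 match, TTCTTAGAA, starts 154 bases before the RefSeq start site, and the Dapl1 match starts 164 bases before it. Dapl1 also holds TTCCCA, the reverse complement of the RBPJ motif TGGGAA, at 146 bases before the start. Klf2 held no match to these motifs or to the AP-1 motif TGANTCA in the 221 bases shown. Among 32851 mouse promoters, each searched over the 250 bases before its start, 7.02% held the STAT motif, 3.17% the FOXO, 21.6% the RBPJ and 6.75% the AP-1 motif. A match is a stretch of letters and no evidence of binding, and none of the motifs was measured in these cells.

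Socs3 (chr11:117966079-117970047, minus strand, GRCm38) encodes a feedback inhibitor of JAK kinases at gp130 and related cytokine receptors and is a textbook target of STAT3. In CD4+ naive cells it ran from 38.1 through a median of 62.8 to 127 CPM in brLN and from 100 through 129 to 159 in udLN (CPM here and below scaled by TMM). The udLN values were higher in 5 of 6 mice and lay in a narrow band, while brLN values of mice 6 and 8 reached into that band. The fitted udLN level was 2.09-fold that in brLN (95% interval 1.61 to 2.72, log2 difference 1.06, SE 0.19, adjusted p = 0.00227 in edgeR). Mouse 6, a WT dam of pool 1, had the opposite sign, at -0.21 on the log2 scale. The UMIs were spread over many cells, with no cell holding more than 9. In CD8+ naive cells Socs3 ran from 35.3 through 43.5 to 84.9 CPM in brLN and from 53.5 through 65.7 to 75.5 in udLN, again higher in 5 of 6 mice, with a log2 difference of 0.42 (SE 0.18) that missed the threshold (adjusted p = 0.767). Within pools the CD4+ difference was 1.25 in pool LN alone (adjusted p = 5.44e-06) and 0.81 in pools 1 and 2 alone (adjusted p = 0.145). The CD4+ call ended without mouse 4 (0.87, adjusted p = 0.0524), without mouse 36 (0.94, adjusted p = 0.0909) and in DESeq2 (1.01, adjusted p = 0.144).

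Of the other genes of cytokine receptors and JAK-STAT signalling, none was called in either lineage. The list had 21 genes tested in CD4+ cells, 12 higher and 9 lower in udLN with a median log2 difference of 0.05, and 24 in CD8+ cells, 14 higher and 10 lower with a median of 0.04. The medians over all genes tested were -0.00 and 0.00. Il7r, the receptor of the survival cytokine of naive T cells, was at 0.05 (SE 0.08) in CD4+ and 0.04 (SE 0.09) in CD8+ cells.

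Klf2 (chr8:72319033-72321656, plus strand) ran from 744 through a median of 844 to 929 CPM in brLN and from 956 through 1033 to 1187 in udLN of CD8+ naive cells. The groups did not overlap, and all 6 mice were higher in udLN. The udLN level was 1.22-fold that in brLN (95% interval 1.14 to 1.32, log2 difference 0.29, SE 0.05, adjusted p = 0.000928). In CD4+ cells Klf2 ran from 761 through 830 to 927 CPM in brLN and from 731 through 916 to 1072 in udLN, with a log2 difference of 0.15 (SE 0.06, adjusted p = 0.688). The CD8+ difference was of like size in pool LN alone (0.25, adjusted p = 0.253) and in pools 1 and 2 alone (0.35, adjusted p = 0.102), though neither was called with 3 mice. DESeq2 gave 0.30 (adjusted p = 0.0836), and restricting CD8+ cells to those with no B cell UMI left 0.24 (adjusted p = 0.905). CD8+ cells with a B cell UMI made up 57.9% to 66.5% of each brLN sum and 47.8% to 64.2% of each udLN sum. Leaving them out therefore also cut the number of cells tested, and the part of that in the lost call was not tested.

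Klf2 was the 1 called gene among those of lymph node entry and exit. Of the 16 listed genes tested in each lineage, 14 were higher and 2 lower in udLN in CD4+ cells (median log2 difference 0.08), and 13 higher and 3 lower in CD8+ cells (median 0.11). Across the 15 tested in both, 11 were higher in both lineages and none was lower in both, against 848 higher and 894 lower in both among the 3291 genes tested in both. Ccr7 was at 0.13 (SE 0.07) in CD4+ and 0.10 (SE 0.07) in CD8+ cells, and S1pr1 at 0.20 (SE 0.10) and 0.09 (SE 0.09). The integrin subunit Itgb7, a part of the gut homing receptor, was at 0.06 (SE 0.08) and 0.21 (SE 0.08). Apart from Klf2 none of these passed the threshold, and the differences over the list ran from -0.28 to 0.38 in CD4+ and from -0.29 to 0.29 in CD8+ cells.

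Dtx1 (chr5:120680202-120711927, minus strand) encodes a ubiquitin ligase of the Deltex family that acts in Notch signalling. In CD8+ naive cells it ran from 54.3 through 59.7 to 102 CPM in brLN and from 72.5 through 118 to 138 in udLN. The nodes overlapped, and mouse 6, a WT dam, held both the highest brLN and the lowest udLN value. It was the 1 mouse lower in udLN (-0.46 on the log2 scale), and the other 5 were higher. The udLN level was 1.88-fold that in brLN (95% interval 1.53 to 2.31, log2 difference 0.91, SE 0.15, adjusted p = 0.000178). In CD4+ cells Dtx1 ran from 29.8 through 47.5 to 75.2 CPM in brLN and from 54.7 through 79.2 to 86.6 in udLN, higher in 6 of 6 mice, with a log2 difference of 0.57 (SE 0.20, adjusted p = 0.574). The CD8+ difference was 1.00 in pool LN alone (adjusted p = 4.72e-05) and 0.73 in pools 1 and 2 alone (adjusted p = 0.681), and 0.88 in DESeq2 (adjusted p = 0.0906).

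Acp5 (chr9:22126727-22135711, minus strand) encodes tartrate-resistant acid phosphatase, best known from osteoclasts. In CD8+ naive cells it ran from 291 through 296 to 370 CPM in brLN and from 394 through 417 to 440 in udLN. The groups did not overlap and all 6 mice were higher in udLN. The udLN level was 1.36-fold that in brLN (95% interval 1.22 to 1.51, log2 difference 0.44, SE 0.08, adjusted p = 0.000266). In CD4+ cells Acp5 ran from 196 through 219 to 310 CPM in brLN and from 233 through 272 to 346 in udLN, higher in 6 of 6 mice, with a log2 difference of 0.27 (SE 0.10, adjusted p = 0.65). The CD8+ difference was 0.52 in pool LN alone (adjusted p = 0.000175) and 0.29 in pools 1 and 2 alone (adjusted p = 0.851). Acp5 was not called among CD8+ cells with no B cell UMI (0.40, adjusted p = 0.905) or in DESeq2 (0.44, adjusted p = 0.0902). As for Klf2, the first of these held far fewer cells, and the part of that in the lost call was not tested.

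Dapl1 (chr2:59484653-59505020, plus strand) encodes a small death-associated protein whose transcript is high in naive T cells. In CD4+ naive cells it ran from 215 through 292 to 343 CPM in brLN and from 159 through 218 to 237 in udLN. It was lower in udLN in 5 of 6 mice, and mouse 8, whose brLN value was the lowest of that node, was the exception. The udLN level was 0.69-fold that in brLN (95% interval 0.59 to 0.80, log2 difference -0.54, SE 0.11, adjusted p = 0.0178). In CD8+ cells Dapl1 was higher overall and close between nodes, from 291 through 411 to 512 CPM in brLN and from 342 through 414 to 486 in udLN (log2 difference 0.03, SE 0.07). The CD4+ difference was -0.54 in pool LN alone (adjusted p = 0.0235) and -0.54 in pools 1 and 2 alone (adjusted p = 0.239). The call ended without mouse 4 (-0.49, adjusted p = 0.147), mouse 7 (-0.55, adjusted p = 0.0645) or mouse 36 (-0.43, adjusted p = 0.328), in cells with no B cell UMI (-0.55, adjusted p = 0.173) and in DESeq2 (-0.50, adjusted p = 0.999). The difference was below 0 under every alternative run. CD4+ cells with a B cell UMI made up 48.1% to 63.5% of each brLN sum and 37.1% to 58.1% of each udLN sum. Leaving them out therefore also cut the number of cells tested, and the part of that in the lost call was not tested.

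Dapl1 stood in a list of naive T transcription factors and quiescence genes, of which 27 were tested in CD4+ cells, 15 higher and 12 lower (median log2 difference 0.05), and 25 in CD8+ cells, 18 higher and 7 lower (median 0.08). Klf2 in CD8+ cells was the other called member. Tcf7, a transcription factor that keeps T cells naive, was higher in udLN in 6 of 6 mice in CD4+ cells (0.31, SE 0.08, adjusted p = 0.134) and was at 0.05 (SE 0.08) in CD8+ cells. Its partner Lef1 was at 0.19 (SE 0.07) in CD4+ and 0.26 (SE 0.07, adjusted p = 0.129) in CD8+ cells.

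Lars2 (chr9:123366927-123462666, plus strand), the mitochondrial leucyl-tRNA synthetase, had the smallest p of the CD4+ genes, but its call rested on a few cells. It was listed here with Gm20594 among ribosomal RNA-like genes, and which transcript its reads come from was not tested. It ran from 3986 through 4915 to 5728 CPM in brLN and from 4796 through 6009 to 6441 in udLN, higher in 6 of 6 mice (log2 difference 0.25, SE 0.04, adjusted p = 9.89e-05). The median CD4+ naive cell held 8 Lars2 UMIs, whereas 1 udLN cell of mouse 1 held 836 of the 1645 of its sum and 1 udLN cell of mouse 36 held 478 of 1573. Without the 4 CD4+ cells holding at least 200 Lars2 UMIs and the 1 holding at least 100 UMIs of Gm20594, a cut chosen after seeing the data, the log2 difference was 0.05 (adjusted p = 0.965). With only the 4 Lars2 cells left out, udLN stayed above brLN in mice 4, 6, 7 and 8 (4383 to 6200 CPM in mouse 8). It was below brLN in mice 1 and 36 (4568 to 2946 CPM in mouse 1). Among cells with no B cell UMI the log2 difference was -0.07 (adjusted p = 0.996). In CD8+ cells it was at -0.06 (SE 0.06). Under the same cut on cells the CD4+ calls were Socs3 (0.99, adjusted p = 0.0387), Dapl1 (-0.53, adjusted p = 0.0387) and Trbv17, and all 5 CD8+ calls held.

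The V segment calls, too, rested on few cells. Trbv17 was read in 17 of 1005 CD4+ cells of brLN and 5 of 536 of udLN, and 4 of the 5 udLN cells were from mouse 4. In CD8+ cells it was read in 28 of 1061 cells of brLN and 24 of 576 of udLN, with up to 31 UMIs in 1 cell. Trbv1, lower in udLN in CD8+ cells (log2 difference -1.05, adjusted p = 0.000275), was read in 86 of 1061 and 24 of 576 cells. Its log2 differences ran from -2.32 to 1.54 over the 6 mice, with mouse 8 alone higher in udLN. The call was lost without mouse 4 (-0.86, adjusted p = 0.0981) and in pools 1 and 2 alone (-0.84, adjusted p = 0.682). It was also lost in cells with no B cell UMI (-1.13, adjusted p = 0.905), in DESeq2 and in the robust edgeR fit (adjusted p = 0.885). Reads of V segments can be divided between related segments, so which segment is counted is uncertain.

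No gene was called with the same sign in both lineages. Trbv17 alone was called in both, lower in udLN in CD4+ cells (log2 difference -1.82, adjusted p = 0.0237) and higher in CD8+ cells (1.34, adjusted p = 6.19e-07). Its CD4+ call was lost without mouse 1, 7, 8 or 36 in turn (adjusted p from 0.0766 to 0.145), and the difference was -5.46 without mouse 4. Both of its calls were lost in DESeq2 and in the robust edgeR fit (adjusted p = 0.838 in CD4+ and 0.729 in CD8+ cells), the CD4+ call also in pool LN alone and the CD8+ call in pools 1 and 2 alone. DESeq2 and limma-voom also called 0 genes with the same sign in both, as did edgeR under every other alternative run. At an unadjusted p below 0.05 in both lineages there were 27 of the 3291 genes tested in both, which is 13.4% of the 202 such CD4+ genes and 15.1% of the 179 such CD8+ genes. In DESeq2 5 genes and in limma-voom 29 had an unadjusted p below 0.05 in both. Of the 27 in edgeR, 24 had the same sign, 19 higher and 5 lower in udLN, whereas over all 3291 genes the sign was the same for 52.9%. The pools differed in this: 30 of 39 such genes had the same sign in pool LN alone, but only 8 of 19 in pools 1 and 2 alone. The 2 lineages are different cells, but they share mouse, dissection, hashtag and well.

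**Figure D2:**
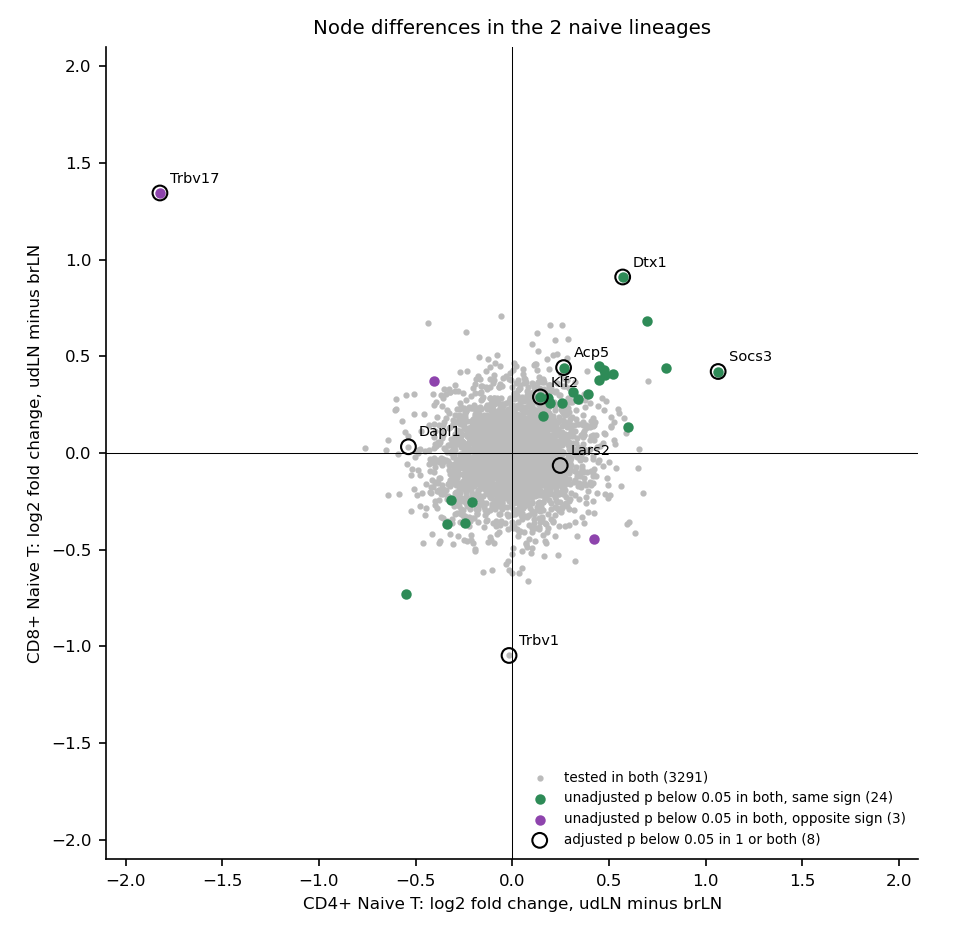
Log2 difference udLN minus brLN of each gene tested in both lineages (grey points, 3291 genes), CD4+ on the x axis and CD8+ on the y axis. Green and purple points have an unadjusted p below 0.05 in both lineages with the same (24) or the opposite (3) sign, and open circles mark the 8 genes called in either. Socs3, Dtx1, Acp5 and Klf2 lie above 0 on both axes, Dapl1 and Lars2 near 0 on the CD8+ axis.

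The 19 genes that were higher in both at an unadjusted p below 0.05 are named here after their values were seen, and outside the called ones none passes the threshold in either lineage. They included all of Socs3, Dtx1, Acp5 and Klf2. Both Jun and Junb, AP-1 subunits, were among them, Jun at 0.48 (SE 0.16) in CD4+ and 0.43 (SE 0.17) in CD8+ cells and Junb at 0.39 (SE 0.12) and 0.31 (SE 0.10). Hdac7, a class II histone deacetylase of T cells, was at 0.80 (SE 0.22) and 0.44 (SE 0.18), and its CD4+ values did not overlap between nodes, at 29.8 to 40.1 CPM in brLN and 48 to 119 in udLN. Bcl3, a nuclear partner of NF-kB, was at 0.70 (SE 0.22) and 0.68 (SE 0.23). The GTPases Gimap7 (0.52, SE 0.17, and 0.41, SE 0.15) and Gimap6 (0.18, SE 0.07, and 0.28, SE 0.08), which serve lymphocyte survival, were both in the group. The others were Lef1, Tagln2, Arhgap45, Rsrp1, Mob4, Bfar, Ddrgk1, Mpdu1 and Cd8b1. Cd8b1 in CD4+ cells (0.60, SE 0.27) stood at 22.2 to 134 CPM in udLN, against 1709 to 2225 in CD8+ cells.

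The 5 genes lower in both at that level were Ppp3cc, Foxn3, Pik3cd, Mndal and Ighm. Ppp3cc, a catalytic subunit of calcineurin, was at -0.55 (SE 0.22) in CD4+ and -0.73 (SE 0.20, adjusted p = 0.129) in CD8+ cells and lower in udLN in 6 of 6 mice in the latter. Foxn3, a forkhead repressor, was at -0.24 (SE 0.09) and -0.36 (SE 0.12), and its CD8+ values did not overlap, at 151 to 170 CPM in brLN and 98.2 to 137 in udLN. In B cells Foxn3 ran from 460 to 608 CPM in brLN and from 287 to 489 in udLN, lower in udLN in 6 of 7 mice. Pik3cd, the lymphocyte isoform of the PI3-kinase catalytic subunit, was at -0.32 (SE 0.14) and -0.25 (SE 0.12). Ighm was at -0.21 (SE 0.10) and -0.25 (SE 0.09). The share of cells with a UMI of any listed B cell gene was also lower in udLN, with medians of 54.5% and 48.7% in CD4+ cells (lower in 5 of 6 mice) and of 61.1% and 57.0% in CD8+ cells (lower in 4 of 6), and its part in these differences was not tested beyond the alternative that leaves such cells out.

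**Figure D3:**
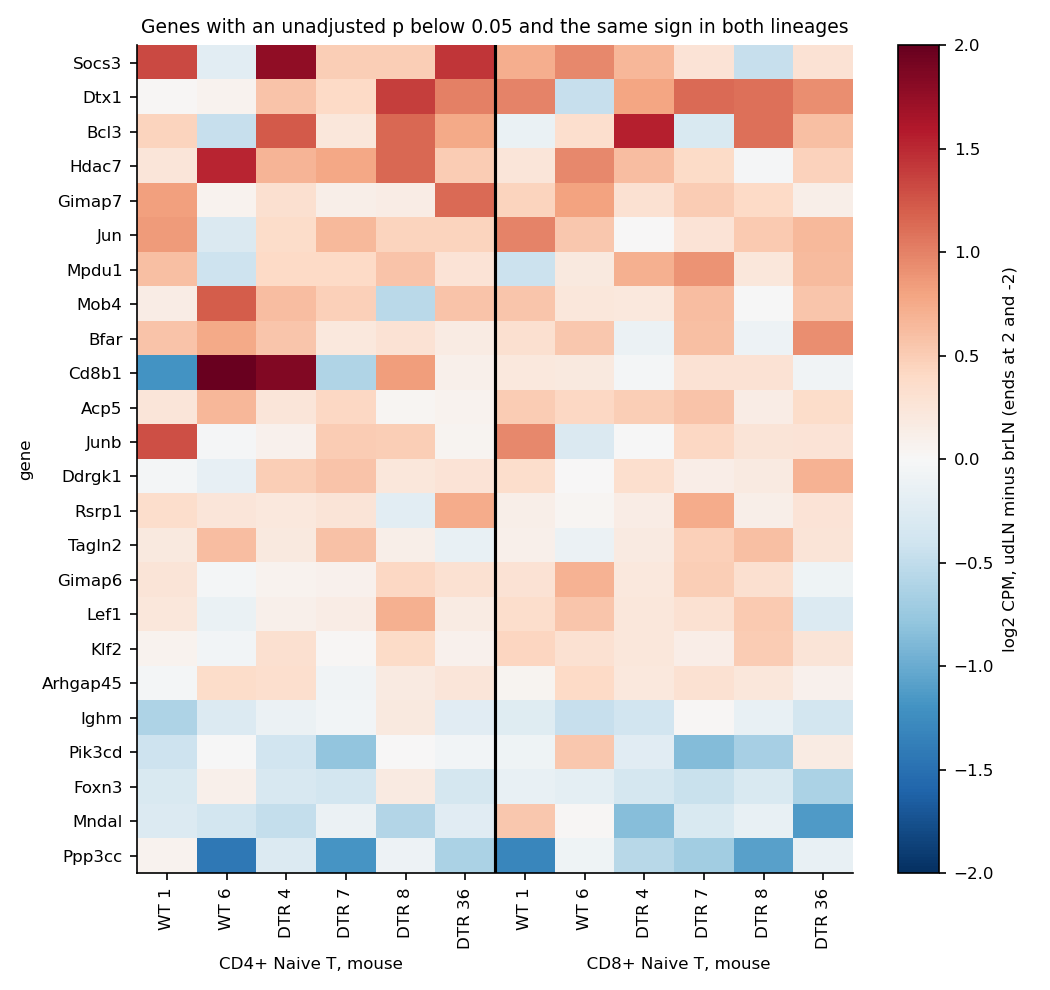
Log2 difference in CPM, udLN minus brLN, in each mouse (columns) and lineage for the 24 genes with an unadjusted p below 0.05 and the same sign in both lineages (rows), with red higher and blue lower in udLN. The 19 upper rows are mostly red and the 5 lower rows mostly blue, and Cd8b1 in CD4+ cells has both colours.

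Adding the 2 lineages together, a comparison added after the data were seen, tested 5777 genes, of which 7 were called (0.121%), 5 higher (0.0866%) and 2 lower (0.0346%) in udLN. Dtx1 (1.75-fold, 95% interval 1.47 to 2.08, adjusted p = 0.00027), Socs3 (1.72-fold, 1.43 to 2.08, adjusted p = 0.000915), Acp5 (1.30-fold, 1.19 to 1.42, adjusted p = 0.000915) and Klf2 (1.17-fold, 1.11 to 1.25, adjusted p = 0.00249) were higher in edgeR, as was Gimap6 (1.18-fold, 1.10 to 1.27, adjusted p = 0.0326). Ppp3cc was lower (0.64-fold, 0.52 to 0.78, adjusted p = 0.0326), and so was Iigp1, an interferon-gamma-induced GTPase (0.43-fold, 0.30 to 0.61, adjusted p = 0.0139). Iigp1 had too few counts to be tested in either lineage alone. It was lower in udLN in 6 of 6 mice in CD4+ cells, where it ran from 11.9 to 41.8 CPM in brLN and from 3.70 to 18.9 in udLN, at 1 to 21 UMIs a sum. In CD8+ cells it was lower in 4 and higher in 2 of 6 mice, from 6.79 to 54.9 CPM in brLN and from 0 to 31.1 in udLN. The Gimap6 call was lost without mouse 1, 4, 7, 8 or 36 in turn (adjusted p from 0.0565 to 0.183), and the Ppp3cc call without mouse 1, 4, 7 or 8 (adjusted p from 0.0565 to 0.189). In DESeq2 none of the 7 was called, with adjusted p from 0.0528 to 1, while limma-voom called 11 genes. The sums hold the same cells as the lineages apart and are no separate evidence for the 4 genes called there.

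Gimap6 belongs to 8 Gimap GTPases, all of them tested. Of these, 7 were higher and 1 lower in udLN in CD4+ cells (median log2 difference 0.11) and 8 were higher in CD8+ cells (median 0.19), with none called in either. Gimap3 was at 0.09 (SE 0.08) in CD4+ and 0.21 (SE 0.08) in CD8+ cells, and Gimap4 at 0.10 (SE 0.10) and 0.22 (SE 0.09). Of the interferon gamma GTPases tested, 4 were higher and 5 lower in CD4+ cells (median -0.06) and 1 higher and 10 lower in CD8+ cells (median -0.19), with none called in either. The type I interferon genes had 10 higher and 20 lower in CD4+ (median -0.05) and 14 higher and 21 lower in CD8+ cells (median -0.03), none called. Among them Ifi27l2a was at -0.25 (SE 0.06, adjusted p = 0.134) in CD4+ cells and -0.12 (SE 0.08) in CD8+ cells, and Slfn1, a Schlafen family gene, at -0.41 (SE 0.11, adjusted p = 0.224) and 0.03 (SE 0.11).

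Lists tied to the handling or state of cells gave small medians. Immediate early and AP-1 genes had 7 higher and 5 lower in CD4+ cells (median 0.02) and 8 higher and 3 lower in CD8+ cells (median 0.11), and Cd69, an early activation marker, was at 0.00 (SE 0.15) and 0.03 (SE 0.12). Glucocorticoid response genes had 12 higher and 1 lower in CD4+ (median 0.06) and 7 higher and 5 lower in CD8+ cells (median 0.01), where Ddit4, a stress-induced inhibitor of mTOR, was at 0.46 (SE 0.11, adjusted p = 0.0737). Genes of antigen receptor signal strength had 6 higher and 9 lower (median -0.04) and 7 higher and 8 lower (median -0.02). Ribosomal protein genes had 6 higher and 79 lower in CD4+ cells, at a median of only -0.04, and 56 higher and 30 lower in CD8+ cells (median 0.01). The cold-inducible Rbm3 was at -0.08 (SE 0.06) and 0.09 (SE 0.06) and Cirbp at -0.06 (SE 0.11) and -0.07 (SE 0.12). The Ly6 antigen Ly6a was at -0.28 (SE 0.09, adjusted p = 0.464) and -0.16 (SE 0.14), and Ly6c1 at 0.12 (SE 0.12) in CD4+ cells. No member of these lists was called.

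**Figure D4:**
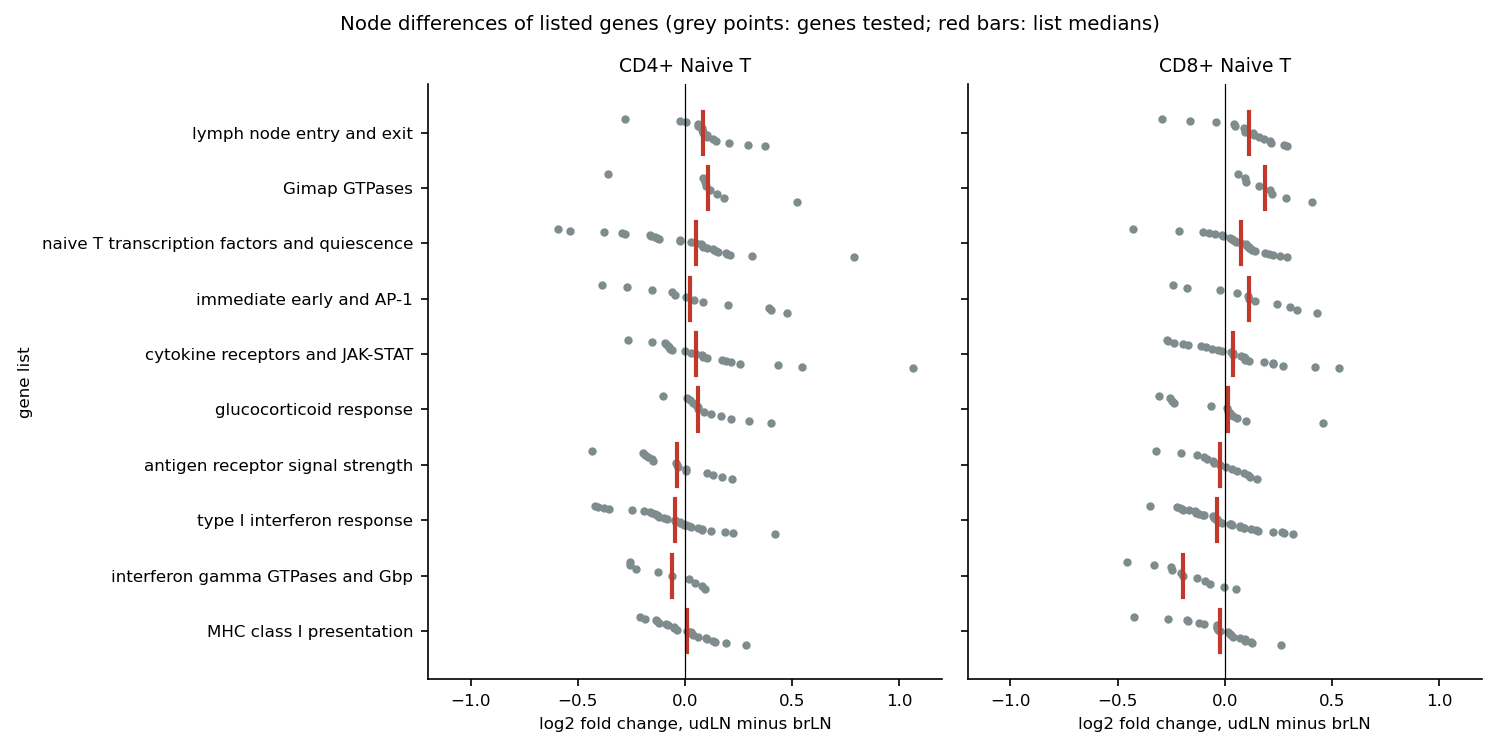
Log2 difference udLN minus brLN of every tested gene of selected lists (grey points), with the list median as a red bar, in CD4+ (left) and CD8+ (right) naive T cells. Medians lie between -0.19 and 0.19, with Gimap and entry and exit genes right of 0 in both lineages.

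Whether a node difference differed between the lineages was tested directly. Of 4337 genes, 6 were called (0.138%), 3 with a higher (0.0692%) and 3 with a lower (0.0692%) difference in CD4+ than in CD8+ cells. Dapl1 was one of them, at -0.57 (SE 0.13, adjusted p = 0.0321): its CD4+ fall was not shared by CD8+ cells. That call was lost without mouse 4 (-0.50, adjusted p = 0.597), 6, 7 or 36 in turn and in DESeq2 (-0.54, adjusted p = 1). Lars2 (0.32, adjusted p = 0.0284) was lost once the few cells of very high counts were left out (0.13, adjusted p = 1). Hbb-bs (0.94, SE 0.18, adjusted p = 0.00371) came from pools 1 and 2, where 1 CD8+ brLN cell of mouse 6 held 148 of 238 UMIs and 1 CD4+ udLN cell of mouse 36 held 109 of 264, and it was not called without mouse 36 (0.59, adjusted p = 0.996). The other 3 were V segments, Trbv17, Trbv3 and Trbv1. None of the 3 was called in the robust edgeR fit, and only Trbv17 was called in DESeq2. Trbv3 was also not called without mouse 4, 8 or 36, and Trbv1 without mouse 1, 4 or 36. Socs3 (0.70, SE 0.25), Dtx1 (-0.29, SE 0.25), Acp5 (-0.17, SE 0.12) and Klf2 (-0.13, SE 0.08) did not pass this test (adjusted p from 0.987 to 0.999), so a call in 1 lineage alone does not show that they differed between lineages. For Socs3 the 95% interval of the difference runs from 0.19 to 1.20, and for Klf2 from -0.29 to 0.02.

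B cells of the same suspensions were tested in the same way. Of 4176 genes, 2 were called (0.0479%), both immunoglobulin V segments. Dtx1 was at -0.07 (SE 0.21) in B cells, Klf2 at -0.01 (SE 0.08), Acp5 at 0.19 (SE 0.10) and Lars2 at -0.00 (SE 0.07). Socs3 had too few counts to be tested in B cells, at 0 to 25 UMIs a sum. It ran there from 0 through 13.3 to 27.7 CPM in brLN and from 17.6 through 37.8 to 53.8 in udLN, higher in udLN in 5 of 7 mice, with a mean log2 difference of 1.12 (SD 1.35). The test of naive T minus B cells called 2 of 6143 genes (0.0326%), both V segments of the T cell receptor, Trbv14 and Trbv26. Neither V segment was called in DESeq2. In the edgeR test of naive T minus B cells Socs3 was at 0.11 (SE 0.42, adjusted p = 0.993), Dtx1 at 0.88 (SE 0.24, adjusted p = 0.335), Klf2 at 0.22 (SE 0.09, adjusted p = 0.928) and Acp5 at 0.23 (SE 0.12, adjusted p = 0.96), so none of these 4 was shown to be particular to naive T cells. Itm2a, a membrane protein of activated T cells, had the largest such difference outside V segments, at 1.84 (SE 0.41, adjusted p = 0.0712). The term does not show a rise in naive T cells. Itm2a was read in 25.2% of CD4+ cells in brLN and 21.6% in udLN, and in 6.79% and 5.73% of CD8+ cells.

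The genotype comparison asked whether the node difference depended on Aire-DTR, with 4 Aire-DTR and 2 WT mice. In CD4+ cells 4 of 3369 genes were called (0.119%), of which 3 were V segments (Trbv15, Trbv13-3 and Trbv16). Trbv13-3 was at 1.92 with all mice and at 1.10 without mouse 1 (adjusted p = 0.821). Trbv16, at -1.60, was not called without mouse 4 (-1.19, adjusted p = 0.233) or mouse 8 (-1.33, adjusted p = 0.186), and Trbv15, at 5.45, was called with each mouse left out, from 4.56 to 9.41. Trbv15 rested on few cells, read in 42 of 1005 CD4+ cells of brLN and 19 of 536 of udLN, with up to 25 UMIs in 1 cell. In DESeq2 none of the 3 was called. The fourth was Gm20594, at -0.74 (SE 0.13, adjusted p = 0.00123). Its WT side rested on 1 cell of mouse 6 that held 104 of the 228 UMIs of its udLN sum, and without the cells of high counts it was -0.45 (adjusted p = 0.186) and without mouse 6 -0.42 (adjusted p = 0.609). In CD8+ cells 1 of 4025 genes was called (0.0248%), Lars2, at 0.58 (SE 0.11, adjusted p = 0.0184), which was not called without mouse 4, 6, 7 or 36 in turn (0.41 without mouse 6, adjusted p from 0.0562 to 0.31). For the genes called between nodes the genotype term was 0.45 (SE 0.41) for Socs3 and -0.23 (SE 0.25) for Dapl1 in CD4+ cells, and 0.36 (SE 0.34) for Dtx1, -0.06 (SE 0.17) for Acp5 and -0.15 (SE 0.12) for Klf2 in CD8+ cells. None of these terms was called, and their 95% intervals ran from -0.38 to 1.27 for Socs3, -0.72 to 0.27 for Dapl1, -0.33 to 1.05 for Dtx1, -0.41 to 0.29 for Acp5 and -0.40 to 0.10 for Klf2.

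The share of naive cells was compared over all 7 mice, within what the sort, given as CD45+ CD3+ in the protocol and as CD45+ in the design text, and the cell filters passed. Of the CD4 T cells in brLN, 68.2% ± 6.76 (SD, n = 7) were naive, and of those in udLN 59.0% ± 7.79, lower in udLN in 6 of 7 mice, with memory and regulatory cells making up the rest (exact two-sided sign-flip permutation p = 0.0312, Benjamini-Hochberg over 5 shares 0.156). The difference was -9.27 percentage points and -7.06 without mouse 97. Of the CD8 T cells 83.5% ± 4.65 were naive in brLN and 85.3% ± 4.09 in udLN. Of all cells, CD4+ naive cells made up 22.9% ± 4.26 and 20.8% ± 6.59, and CD8+ naive cells 26.5% ± 5.00 and 24.6% ± 7.36. CD4+ cells were 46.4% ± 7.52 of naive T cells in brLN and 45.9% ± 12.7 in udLN. No share passed the adjusted threshold, and 7 mice allow a smallest p of 0.0156.

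**Figure D5:**
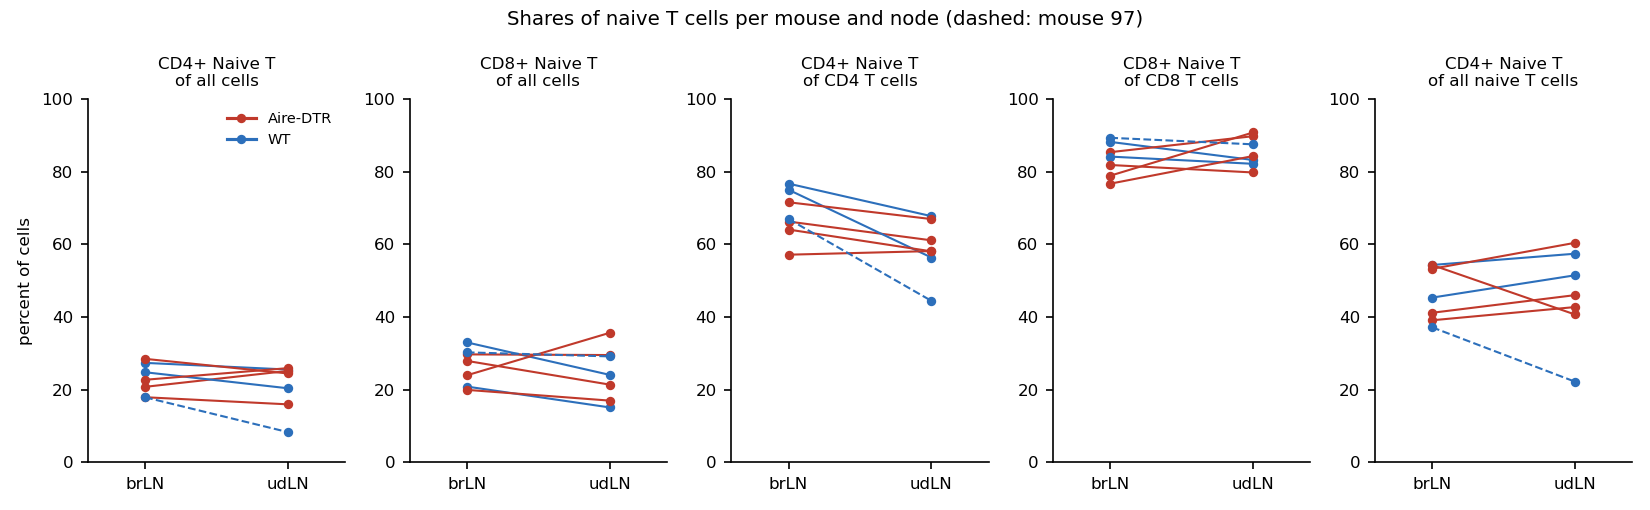
Shares of naive T cells in brLN and udLN, in percent (y axis, 0 to 100), with 1 line per mouse (7 mice) and mouse 97 dashed because its udLN gave few cells. CD4+ naive cells as a share of CD4 T cells are lower in udLN in 6 of 7 mice, as are CD8+ naive cells as a share of all cells.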

How the data were processed

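Lymph node cells of 7 dams were sequenced with 10x Genomics 3′ chemistry. The submitters' processing notes name kallisto 0.46.1, bustools 0.40.0, Scanpy 1.7.0, Seurat and GRCm38, with no parameters. The authors deposited raw UMI counts per cell with a cell table giving mouse, node and cell type, and the naive classes were taken from that table. How doublets were treated is not given in the sources used here, and no doublet caller was run. In 1 well of pool LN 2127 cells were present a second time with identical counts and annotation, and each was counted once. The comparison, the gene lists and the genes described were chosen with earlier results of these data known.

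Counts were summed per mouse, node and class with at least 20 cells, and tested in edgeR 4.0.16 (filterByExpr, TMM scaling, quasi-likelihood test, R 4.3.3) with Benjamini-Hochberg adjustment over all genes tested. Node differences had mouse as a block, since the 2 nodes come from the same animal (correlation of same-mouse deviations 0.07 to 0.20 in CD4+ and 0.08 to 0.25 in CD8+ cells). Different mice of 1 pool correlated about as strongly (0.058 to 0.17 in CD4+ and 0.099 to 0.25 in CD8+ cells). Lineage, genotype and B cell comparisons were interaction terms. The robust option of edgeR was run first, with 3 CD4+ and 13 CD8+ calls seen. The default is reported because the fixed design names no robust option. DESeq2 1.42.0 and limma-voom 3.58.1 were alternatives. On simulated counts with 100 genes changed per fold, 60% of 1.5-fold and 94% of 2-fold changes were called for the CD4+ comparison (3369 genes), 61% and 97% for the CD8+ comparison (4025 genes), and 21% and 62% for the lineage comparison (4337 genes). In these runs 5, 8 and 4 unchanged genes were called too. So many planted changes make the adjusted threshold easier to pass than in the data, where few genes were called. The shares are therefore not the power of the tests reported here.

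Genes are named by this rule: called genes other than receptor segments in each comparison, called list members, and a fixed set always examined, not all of which is reported here. Genes sharing an unadjusted p below 0.05 in both lineages, further list members and V segments were named after their values were seen. Counts are of captured molecules. The p-values use a spread between mice that edgeR estimates partly from other genes, so it can be smaller than a gene's own. For Trbv17 in CD8+ cells the log2 differences of the 6 mice ran from -0.84 to 4.39, with an SD of 1.75. The fitted SE was 0.17. Promoters came from RefSeq on GRCm38.p6 and gene positions from GENCODE mouse release 21 on GRCm38.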

Additional observations from a re-analysis of the deposited data

Results flagged for a closer look

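Among 103 genes and shares examined, 8 had 1 mouse far from the others in the difference udLN minus brLN, where chance flags about 5% of such groups. Mouse 6 stood lowest in Dtx1 of CD8+ cells (-0.46 on the log2 scale) and in Cd44 (-1.79), Ly6c1 (-1.32) and Mpdu1 (-0.41) of CD4+ cells. Mouse 7 stood highest in Rsrp1 (0.75) and Itgb7 (0.56) of CD8+ cells and in the CD8+ naive share of all cells (11.7 percentage points). Mouse 4 stood highest in Trbv17 of CD4+ cells (-0.15).

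The node difference itself differed between CD4+ and CD8+ cells, by edgeR's interaction term, for Dapl1 (-0.57), Hbb-bs (0.94), Lars2 (0.32), Trbv1 (1.03), Trbv17 (-3.53) and Trbv3 (-0.87). Only Trbv17 among them was called in DESeq2. Dapl1 was not called without mouse 4, 6, 7 or 36, Hbb-bs without mouse 36, and Lars2 without mouse 1, 6 or 8. Trbv1 was not called without mouse 1, 4 or 36, and Trbv3 without mouse 4, 8 or 36. Lars2 and the V segments Trbv1, Trbv17 and Trbv3 were also not called in the robust edgeR fit. The node difference differed between Aire-DTR and WT mice for Gm20594 (-0.74), Trbv13-3 (1.92), Trbv15 (5.45) and Trbv16 (-1.60) in CD4+ cells and for Lars2 (0.58) in CD8+ cells. Of these, Gm20594 was not called without mouse 6, Trbv13-3 without mouse 1, Trbv16 without mouse 4 or 8, and Lars2 without mouse 4, 6, 7 or 36. The node difference differed between naive T and B cells for Trbv14 (-4.30) and Trbv26 (6.12). All of these are log2 values. Neither Trbv14 nor Trbv26 was called in DESeq2 or without the replicate block, and Trbv26 was not called without mouse 4 (adjusted p = 0.301). Trbv26 was read in 4.78% of CD4+ naive cells in brLN and 4.29% in udLN, and in 3.39% and 3.12% of CD8+ cells.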

How the results depend on the processing

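Counts of called genes moved with the method, and the cause was not tested. In DESeq2 1 CD4+, 0 CD8+, 0 summed, 1 lineage, 0 and 0 genotype (CD4+, CD8+) and 0 naive T against B genes were called. With no low-count filter 7 CD4+, 10 CD8+, 17 summed, 3 CD8+ genotype and 6 naive T against B genes were called, and limma-voom called 11 summed. Without the mouse as a replicate block 2 CD4+, 5 CD8+, 1 lineage and 0 naive T against B genes were called. The calls lost there were Lars2 (0.24, adjusted p = 0.112) and Trbv17 in CD4+ cells, Gimap6 and Iigp1 in the sums, and every lineage call except Trbv17. Pool LN alone gave 9 CD4+ calls, pools 1 and 2 alone 8 CD4+, 0 CD8+ and 1 summed. CD8+ cells with no B cell UMI gave 1 call, and CD4+ cells chosen by Cd4 and Cd8 UMIs gave 0. The robust fit called 13 CD8+, 12 summed, 2 lineage, 2 CD4+ genotype and 0 CD8+ genotype genes, the matrix as deposited 2 lineage and 2 CD8+ genotype genes, and leaving out the cells of high Lars2 or Gm20594 2 CD4+ genotype genes (these 3 alternatives were chosen after seeing the data). Leaving out each mouse in turn gave 1 to 6 CD4+ calls (1 without mouse 36, 2 without mouse 4 or 7), 5 to 10 CD8+ (10 without mouse 36), 4 to 12 summed, 2 to 5 lineage, 3 to 6 and 0 to 2 genotype, and 1 to 8 naive T against B calls. CD4+ cells as a share of naive T cells differed by 1.88 points without mouse 97. The smallest sums held 31 CD4+ and 23 CD8+ cells, both of mouse 6 in udLN, and 2 WT mice carried the genotype terms.

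In the lineage where it was called no gene reversed except Lars2. Signs of other log2 differences near 0 reversed as follows. In CD4+ cells Trbv1 was 0.029 in limma-voom, 0.027 with no replicate block, 0.049 with at least 50 cells, 0.0044 thinned, 0.032 in pool LN and 0.0025 as deposited. Cd69 was -9.1e-06 in limma-voom, -0.037 with no filter, -0.032 with no replicate block, -0.029 by Cd4 and Cd8 UMIs, -0.096 thinned, -0.11 in pool LN and -0.022 as deposited. Gm20594 was -0.0088 with no filter, -0.12 with at least 50 cells, -0.53 with no B cell UMI, -0.048 by Cd4 and Cd8 UMIs, -0.012 as deposited and -0.11 without the high cells. With no B cell UMI, CD4+ Ccr7 was -0.016, Lars2 -0.072, Ddit4 -0.15 and Gimap3 -0.013, and CD8+ Il7r -0.14, Cd69 -0.37, Cirbp 0.020 and Slfn1 -0.37. In pool LN, CD4+ Ccr7 was -0.011, Cirbp 0.057 and Gimap3 -0.058, and CD8+ Dapl1 -0.070, Il7r -0.096 and Lars2 0.034. In pools 1 and 2, CD4+ Ly6a was 0.010 and Ly6c1 -0.048, and CD8+ S1pr1 -0.041, Cd69 -0.030 and Ifi27l2a 0.0047. In CD8+ cells with at least 50 cells Il7r was -0.025, Lars2 0.031 and Slfn1 -0.0053, Slfn1 with no filter -0.00027, and Cd69 -0.048 thinned and -0.027 as deposited. The genotype term of Acp5 was 0.0080 as deposited. Leaving out each mouse in turn gave, in CD4+ cells, Trbv1 -0.18 to 0.17, Cd69 -0.077 to 0.12 and Gm20594 -0.12 to 0.11. In CD8+ cells it gave Dapl1 -0.0094 to 0.12, S1pr1 -0.0043 to 0.13, Il7r -0.046 to 0.21, Tcf7 -0.047 to 0.11, Cd69 -0.038 to 0.12, Lars2 -0.14 to 0.031, Cirbp -0.14 to 0.016, Ly6a -0.32 to 0.23, Ifi27l2a -0.24 to 0.071 and Slfn1 -0.049 to 0.14. The genotype terms ran from -0.24 to 1.40 for Socs3, -0.024 to 1.49 for Dtx1 and -0.12 to 0.017 for Acp5.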
